A study of Mus musculus with 94 samples.

Results

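The cells described here are the 25 CD34-positive basophils of mouse bone marrow in which the deposited counts hold at least 1 read of Kit, set beside the 21 CD34-positive basophils in which they hold none. They were chosen from the Kit counts themselves, among the 46 of 47 CD34-positive cells with at least 50000 reads on mouse genes. The 1 cell left out had 31504 gene reads and 0 Kit reads. The study profiled 94 single cells in all, 47 CD34-positive and 47 CD34-negative, each sequenced as a plate-based library with ERCC spike-in RNA. Every cell was a live lineage-negative, Sca1-negative, FcεRI-positive cell from female C57BL/6 mice with no treatment named, and both gates differ only in the CD34 sort. The design names 3 mice and no label ties a cell to a mouse, so each set of cells counts as 1 sample and no test was run. All comparisons below describe these libraries. They use the contrast that the choice by Kit made, so they are descriptions and support nothing further.

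Kit encodes the receptor tyrosine kinase for stem cell factor. Blood stem cells, progenitors and mast cells carry it, and its signal passes through Src family kinases, PI3 kinase, the Ras and MAP kinase pathway and STAT5 to support survival and division. Mature basophils are known for little or no Kit, for the IgE receptor FcεRI, and for granule proteases, cytokines and chemokines.

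Kit counts ran from 1 to 361 reads in the 25 cells, with a median of 139. As counts scaled to a common total of gene reads (CPM), the lowest, median and highest cells held 1.17, 191 and 668 CPM. At the edge of the choice stood 4 cells with few reads. Cells 25 and 13 held 1 Kit read each, cell 27 held 7 and cell 21 held 9, while the other 21 cells held 10 or more. Just outside the threshold, 0 reads allowed up to 3.11 to 8.02 CPM in the 21 cells, taking 3 reads as the upper limit of a count of 0. That limit covers counting error alone. The 25 cells were 54.3% of the 46 (exact Clopper-Pearson 95% interval 39.01 to 69.1%). The 10 cells with most Kit held 72.1% of its 3279 reads. In the CD34-negative gate, 6 of 46 cells held 1 Kit read each and none held more, a share of 13.04% (4.94 to 26.3%). Cells 13 and 25, at 1.61 and 1.17 CPM, were both below the highest CD34-negative cell with a Kit read, which held 2.56 CPM.

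Cd34, which encodes the sialomucin used for the sort, was found alike in both sets. Reads of Cd34 were present in 16 of the 25 cells with Kit reads (64.0%, 42.5 to 82.0%) and in 12 of the 21 without (57.1%, 34.02 to 78.2%). Cd34 ranged from 0 through a median of 20.8 to 424 CPM in cells with Kit reads, and from 0 through 11.4 to 203 CPM in those without. The 2 ranges overlapped over their whole length apart from 3 cells of the first set. Summed over cells, Cd34 was at 63.9 against 55.2 CPM, with a log2 fold of 0.21. The sign rests on cell 40, which held 17.5% of all Cd34 reads, since the log2 fold was -0.24 without it. CD34-negative cells summed to 0.209 CPM. Among the 46 cells, 16 had reads of both genes, 9 of Kit alone, 12 of Cd34 alone and 9 of neither.

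**Figure D1:**
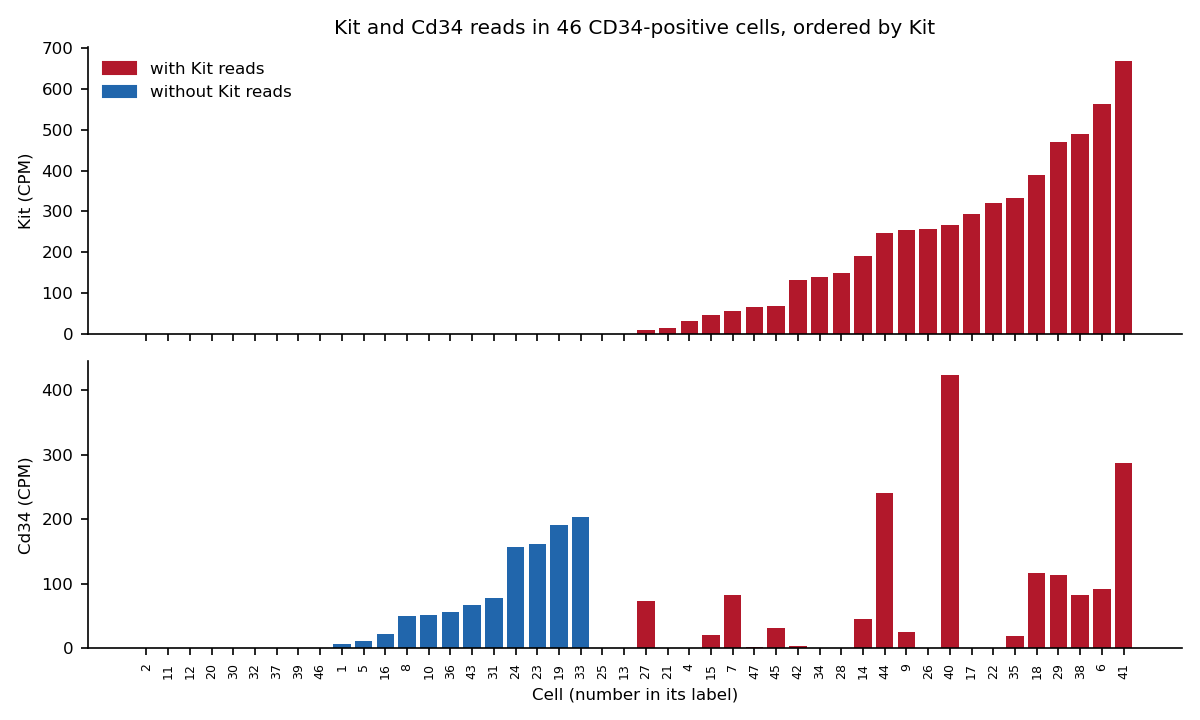
Kit (upper panel) and Cd34 (lower panel) in CPM in each of the 46 CD34-positive cells, ordered by Kit and then by Cd34; bars are single cells, red with and blue without Kit reads. Kit runs from 1.17 to 668 CPM across the 25 cells, and Cd34 is at 0 in 9 cells of each colour.

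The libraries of both sets were of like depth and differed in complexity. Gene reads per cell ran from 388521 to 1154738 with a median of 622706 in cells with Kit reads, and from 374011 to 963475 with a median of 666421 in cells without. After 200000 gene reads were drawn from every cell, the lowest, median and highest numbers of genes with a read were 4607, 6950 and 8776 with Kit reads and 4110, 6147 and 7524 without. The medians differed by 803 genes, and by 501 among cells numbered 7 to 42 only. The SD over cells, a spread and not the error of that difference, was 1011 and 947 genes. Gene reads per ERCC read, a measure of cell RNA against the spike-in, had medians of 15.3 and 12.7. Ambiguous reads (19.2% and 18.3%) and mitochondrial reads (2.28% and 1.84%) lay close together in their medians. Cells 1, 2 and 5, all without Kit reads, had the largest shares of ambiguous reads (49.0%, 41.5% and 36.4%) and the fewest gene reads per ERCC read, and values among cells numbered 7 to 42 leave them out. Whether complexity plays a part in the differences below was not tested. A gene was called found in a cell only after the draw to equal depth, which evens out reads per cell and not complexity. At that depth Kit was found in 24 of the 25 cells and in 1 of 46 CD34-negative cells. Most cells of both sets were rich in basophil transcripts, with exceptions. Prss34 was under 5000 CPM in cells 6, 35, 40 and 41 with Kit reads and in cell 1 without, and cells 41 and 1 also held almost no Mcpt8. Without these 5 cells the log2 fold of Cd34 was -0.62.

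Folds below are log2 ratios of summed CPM plus a pseudocount of 1 CPM, cells with over cells without Kit reads, over the 10796 genes with reads in at least 10 of the 46 cells, Kit left out. Over all these genes the median log2 fold was 0.14 (SD over genes 0.91), and 13.7% were at least 2-fold higher, 8.09% at least 2-fold lower and 57.4% higher by any amount. With ERCC reads in place of gene reads as the scale, the median of all genes moved to 0.47, so folds are to be read against the median of the same scale. At equal depth 64.8% of the genes were found in a larger share of the cells with Kit reads. No gene of the 10796 separated the sets, since the ranges over cells overlapped for every one.

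A list named for primary granules, the protease and peroxidase granules of early myeloid cells, was higher in the cells with Kit reads. Besides granule enzymes it holds other genes of early granulocytes and secretion, such as Plac8, Ms4a3, Nkg7, Hp, Cst7 and Calr. All 12 genes of the list passed the filter, and all 12 had a higher summed level, beside 57.4% of all genes. At least 2-fold higher were 4 of them, against 13.7% of all genes. Their median log2 fold was 0.66 beside 0.14 for all genes, and 0.58 when each gene's richest cell was left out. Summed over the list, cells with Kit reads ran from 4419 through a median of 16870.1 to 35771 CPM, and cells without from 2664 through 7625 to 20763 CPM. The median cell with Kit reads lay inside the upper part of the other set's range. CD34-negative cells had a median of 2559 CPM, below both. At equal depth the median cell held reads of 10 and 8 of the 12 genes. The median gene of the list was found in a share of cells 2.38 percentage points higher with Kit reads, below the 4.76 points over all genes.

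Mpo, the myeloperoxidase of azurophil granules, ran from 199 through a median of 4661 to 9869 CPM in the cells with Kit reads and from 0 through 864 to 7531 CPM in those without. Every cell with Kit reads held Mpo, and the lower cells of the other set held little or none. The summed levels were 4385 and 1625 CPM, a log2 fold of 1.43, with 125 CPM in CD34-negative cells. Ctsg, which encodes the serine protease cathepsin G, was read in all 46 cells. Its lowest, median and highest values were 1093, 4534 and 14272.5 CPM with Kit reads and 137, 2261 and 6823 CPM without, a log2 fold of 0.58. Elane and Prtn3, neutrophil elastase and proteinase 3, were sparse and uneven. Each was found at equal depth in 12 of 25 cells with Kit reads (48.0%) and in 3 of 21 without (14.3%). Elane reached 417 CPM with and 58.7 CPM without Kit reads, and its summed levels of 79.6 and 3.34 CPM gave a log2 fold of 4.22. The fold of Elane was 4.97 without cell 36 and 3.84 without cell 34. Prtn3 reached 617 and 162 CPM, and its log2 fold of 2.96 became 4.35 without cell 8 and 2.20 without the 5 cells low in Prss34. Among the more evenly expressed members, the log2 fold was 0.67 for Calr, a calcium-binding chaperone of the endoplasmic reticulum, 0.65 for Plac8, 0.61 for Ms4a3, a gene of granulocyte and monocyte progenitors, and 0.52 for Srgn, the core protein of granule proteoglycan. The lowest of the 12 was Cst7, a cystatin, at 0.11, below the median of all genes. It lay between -0.03 and 0.26 with any 1 cell left out.

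Elane at chr10:79886247-79888215 and Prtn3 at chr10:79874476-79883174 (GRCm38, both on the plus strand) are neighbours in the genome. Mpo lies at chr11:87793581-87804413 on the plus strand and Ctsg at chr14:56099881-56102574 on the minus strand. The 250 bases before the RefSeq start of these 3 proteases and the peroxidase is shown because these are the granule enzymes described above. RefSeq starts differ from the GENCODE gene spans just given. The Prtn3 window lies inside its span, the Elane and Mpo windows reach into theirs, and only that of Ctsg lies wholly before its gene. Distances below are to the RefSeq start. The sequences are from RefSeq on GRCm38.p6, and capitals mark GGAAGT, a core bound by ETS family factors such as PU.1, and AACGG, a core bound by MYB, each searched on both strands.
Elane, chr10:79886062-79886311, plus strand: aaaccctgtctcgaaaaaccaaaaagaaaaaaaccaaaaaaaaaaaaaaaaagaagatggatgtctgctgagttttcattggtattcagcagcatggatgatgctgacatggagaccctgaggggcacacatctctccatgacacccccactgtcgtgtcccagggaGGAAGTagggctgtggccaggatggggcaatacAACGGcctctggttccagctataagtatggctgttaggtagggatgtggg
Prtn3, chr10:79879417-79879666, plus strand: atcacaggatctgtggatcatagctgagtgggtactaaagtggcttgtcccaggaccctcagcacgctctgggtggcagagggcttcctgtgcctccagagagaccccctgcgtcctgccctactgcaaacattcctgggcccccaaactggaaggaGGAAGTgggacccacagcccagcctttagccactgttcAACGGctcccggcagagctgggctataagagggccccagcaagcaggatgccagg
Mpo, chr11:87793534-87793783, plus strand: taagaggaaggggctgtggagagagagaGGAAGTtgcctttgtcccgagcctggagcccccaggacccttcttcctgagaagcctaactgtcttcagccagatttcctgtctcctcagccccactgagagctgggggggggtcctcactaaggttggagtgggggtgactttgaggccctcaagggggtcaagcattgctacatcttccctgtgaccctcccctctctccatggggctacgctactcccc
Ctsg, chr14:56102575-56102824, minus strand: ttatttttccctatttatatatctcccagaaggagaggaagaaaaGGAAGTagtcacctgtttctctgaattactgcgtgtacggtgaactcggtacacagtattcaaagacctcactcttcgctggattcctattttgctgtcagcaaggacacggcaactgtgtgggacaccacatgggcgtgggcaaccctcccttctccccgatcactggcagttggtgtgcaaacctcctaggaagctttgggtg
GGAAGT was present in all 4 windows, beginning 83 bases before the start in Elane, 93 in Prtn3, 222 in Mpo and 205 in Ctsg. AACGG was present in Elane and Prtn3, at 50 and 55 bases before the start. Of 32851 RefSeq windows of this length, 19.7% held GGAAGT and 14.5% held AACGG. Of the 12 list genes, 10 had a window, 7 of these with GGAAGT and 3 with AACGG (Elane, Prtn3 and Plac8) in any of their windows. These counts are per gene and the shares are per window, so they are not directly comparable. The motifs were picked after the sequences and values had been seen, and a match describes letters only.

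**Figure D2:**
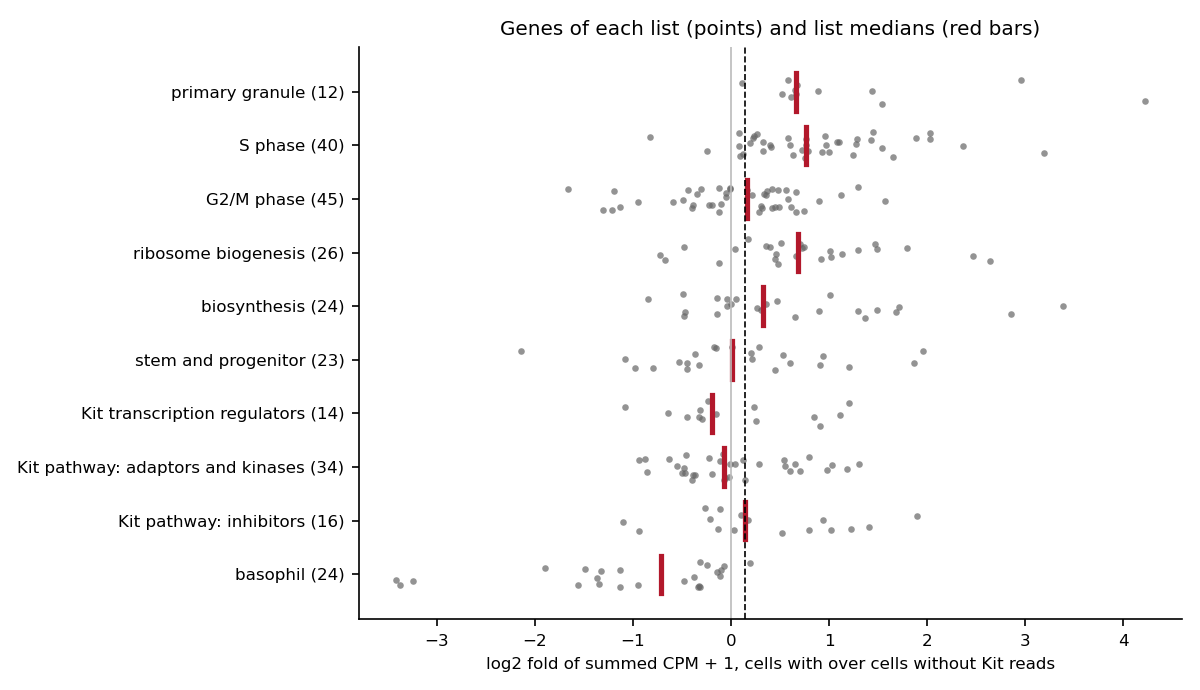
Log2 fold of summed CPM plus 1, cells with over cells without Kit reads, for each gene (grey points) of 10 lists; red bars are list medians and the dashed line is the median of all genes, 0.14. The primary granule median lies at 0.66, the S phase median at 0.76 and the basophil median at -0.71.

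Genes of basophil function were lower in the cells with Kit reads. Of the 26 list genes, 24 passed the filter (Il13 and Ltc4s did not), of which 23 were lower and 1 higher, while 57.4% of all genes were higher. At least 2-fold lower were 11 of them, against 8.09% of all genes. Their median log2 fold was -0.71, and -0.36 on the ERCC scale. The median difference in share of cells at equal depth was 0 points for the list, beside 4.76 points over all genes. At equal depth the median cell held reads of 18 list genes with Kit reads, 20 without and 22 in the CD34-negative gate.

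The abundant identity genes differed by less than 2-fold. Prss34, a mast cell and basophil protease, ran from 217 through 54436 to 110727 CPM with Kit reads and from 50.1 through 64619 to 118824 CPM without, and its log2 fold of -0.32 became 0.04 on the ERCC scale. Mcpt8, the basophil protease, had a log2 fold of -0.07 and Cpa3, carboxypeptidase A3, one of -0.10, both above 0 on the ERCC scale. The 3 chains of FcεRI had log2 folds of -0.25 for Fcer1a, 0.19 for Ms4a2 and -0.32 for Fcer1g, none of them below 0 on the ERCC scale. Hdc, which makes histamine, had a log2 fold of -0.15, and 0.21 on the ERCC scale. Beside the medians of all genes (0.14, and 0.47 on the ERCC scale), Ms4a2 was above on both scales and the other 6 genes were below on both.

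The chemokine genes Ccl3, Ccl4, Ccl6 and Ccl9 encode secreted attractants of leukocytes and lie within 1 cluster on chromosome 11. Added together, they ran from 3.01 through a median of 101 to 2021 CPM in cells with Kit reads and from 0 through 747 to 7352 CPM in cells without. The 46 CD34-negative cells ran from 151 through 9203 to 22913 CPM. At least 100 CPM was held by 13 of 25 cells with Kit reads, 16 of 21 without, and 46 of 46 CD34-negative cells. The sets overlapped up to 2021 CPM, and 6 of the 21 cells without Kit reads (23, 30, 33, 37, 39 and 46) lay above every cell with Kit reads.

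Ccl9 was the most even of the 4 genes. Its median was 17.6 CPM with Kit reads and 139.9 CPM without, with highest cells at 1534 and 4664 CPM, and its log2 fold of -1.90 reached -2.54 with only cells of 10 or more Kit reads. Ccl3 summed to 38.5 against 374 CPM, a log2 fold of -3.25 that became -4.57 without cell 25, one of the cells with a single Kit read. Ccl6 summed to 35.3 against 377 CPM, a log2 fold of -3.38 that was -2.38 without cell 23, which held 47.2% of its reads, and -3.99 without cell 22. Ccl4 was found at equal depth in 2 of 25 and 7 of 21 cells, and its log2 fold of -3.41 was -2.63 without cell 46 and -4.36 without cell 41. Single cells thus set the size of 3 of the 4 folds, and none of these left-out cells turned a sign.

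Il4, the type 2 cytokine that basophils release, ran from 0 through 14.6 to 138 CPM with Kit reads and from 0 through 68.2 to 299.8 CPM without, a log2 fold of -1.36. Il6, another cytokine, had medians of 30.1 and 102 CPM and a log2 fold of -1.56, which was -2.18 with only cells of 10 or more Kit reads. The fold of Il6 lay between -2.01 and -1.38 with any 1 cell left out. The receptor chains for interleukin 18 were lower too. Il18r1 was found in 11 of 25 cells (44%) and in 16 of 21 (76.2%), with a log2 fold of -1.33. Il18r1 lay between -2.19 (without cell 4) and -1.08 with any 1 cell left out. Il18rap, its partner chain, had medians of 203 and 735 CPM and a log2 fold of -1.14, or -0.95 without cell 23. Itga2, the integrin chain of the antibody DX5, had a log2 fold of -1.49, or -2.10 with Kit status read at equal depth. Cd200r3, an activating receptor of basophils and mast cells, summed to 897 and 1729 CPM, with a log2 fold of -0.95 that lay between -1.10 and -0.88 with any 1 cell left out. Cd69, an activation antigen, had a log2 fold of -1.34, or -0.88 without cell 23 and -2.26 without cell 9. Osm, the cytokine oncostatin M, had a log2 fold of -1.14, or -0.57 without cell 37 and -1.87 without cell 34. In CD34-negative cells each of these receptors and cytokines had a summed level above that of the cells with Kit reads.

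**Figure D3:**
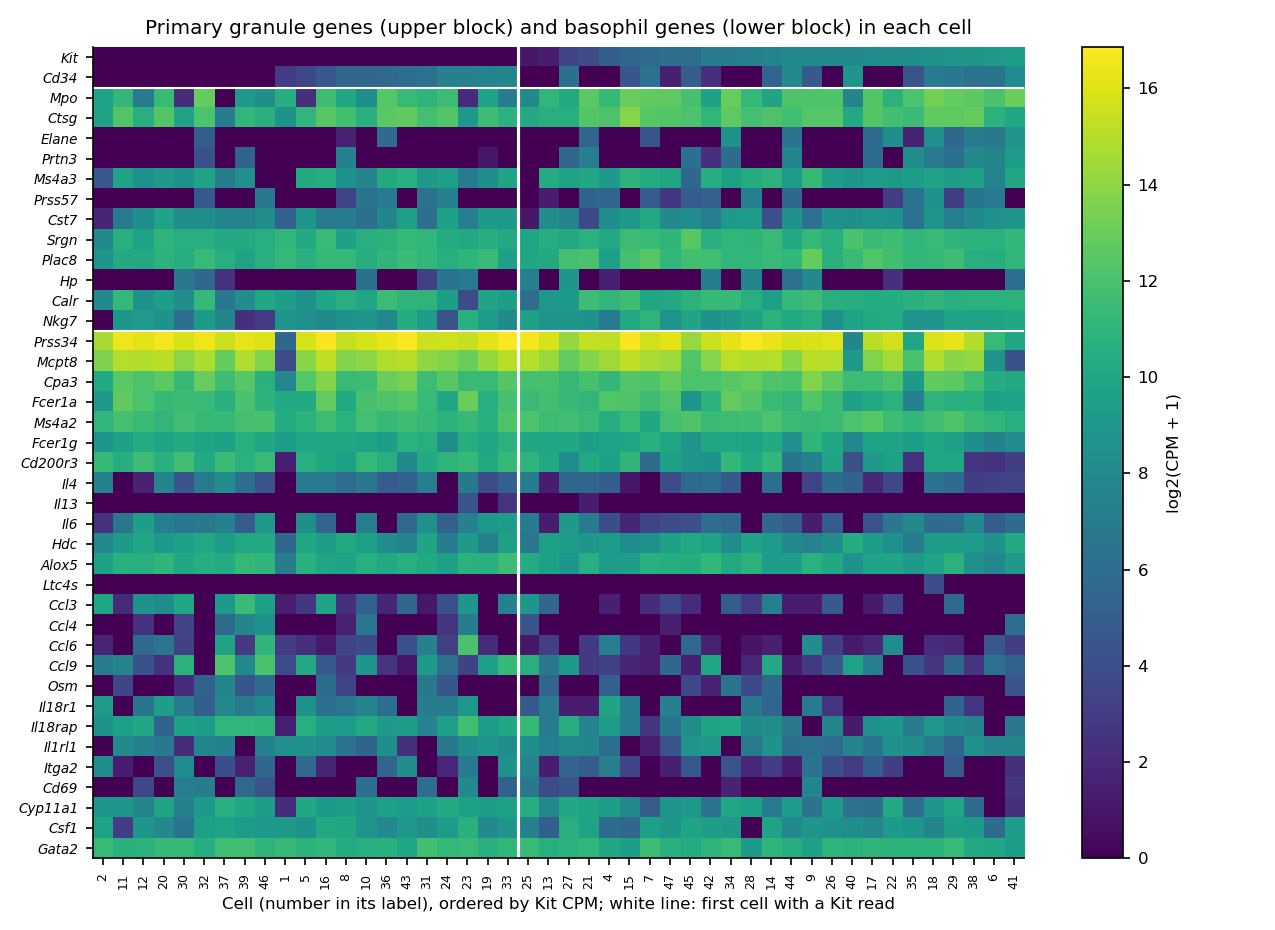
Log2(CPM + 1) of Kit, Cd34, the 12 primary granule genes (upper block) and the 26 basophil genes (lower block) in each of the 46 cells, ordered by Kit CPM; the vertical line stands before the first cell with a Kit read. Mpo and Elane are brighter to the right of the line, Ccl3, Ccl6 and Ccl9 to the left, and Prss34 is bright on both sides except in cells 1, 6, 35, 40 and 41.

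Genes of DNA synthesis were higher in the cells with Kit reads. Of 42 S phase genes, 40 passed the filter, of which 38 were higher and 14 at least 2-fold higher, against 57.4% and 13.7% of all genes, with a median log2 fold of 0.76. At equal depth the number of S phase genes found ran from 10 through a median of 30 to 40 in cells with Kit reads and from 6 through 18 to 39 in cells without, beside a median of 6.5 in CD34-negative cells. Both sets thus held cells with nearly the whole list and cells with few of it. Rrm2, the regulated subunit of ribonucleotide reductase, summed to 174 and 32.95 CPM, a log2 fold of 2.36, although at equal depth 10 of 25 and 9 of 21 cells held it (40% and 42.9%). Its highest cells held 758 and 224 CPM, so the difference lay in level and not in the share of cells. Cdca7 and Hells, which act together in chromatin remodelling, each had a log2 fold of 2.03 and were found in 14 and 15 of 25 cells against 4 and 7 of 21. Pola1, the catalytic subunit of the primase complex polymerase, had medians of 129 and 0 CPM and a log2 fold of 1.25, which was 0.76 with Kit status read at equal depth. Rrm1, the large reductase subunit, had a log2 fold of 1.54. It lay between 1.21 and 2.44 with any 1 cell left out, the latter without cell 10. Mcm6, a subunit of the replicative helicase, had medians of 360.0 and 123 CPM and a log2 fold of 0.92 that was 1.17 without cell 16 and 1.03 or 1.04 without cells 2, 20 or 43. Its lowest fold with any 1 cell left out was 0.77.

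Genes of mitosis were mixed in their summed levels. Of 52 G2/M genes, 45 passed the filter, 23 higher and 22 lower, beside 57.4% higher over all genes. At least 2-fold, 3 were higher and 5 lower, beside 13.7% and 8.09% of all genes. The median log2 fold of the list was 0.16 beside 0.14 for all genes. By cell, the order was that of the S phase genes, with medians of 19, 15 and 7 G2/M genes found at equal depth in cells with Kit reads, without, and CD34-negative. Reads of 40 or more of the 52 genes at equal depth were held by 4 of 25 cells with Kit reads (6, 13, 28 and 35) and 3 of 21 without (11, 12 and 46). Without these 7 cells the median log2 fold of the list was 0.96, and without cell 46 alone it was 0.57. Tpx2, a spindle assembly factor, had a log2 fold of -1.67 with reads in 6 of 25 and 5 of 21 cells at equal depth, and the fold was -1.03 without cells 1 and 40. Ccnb2, cyclin B2, had a log2 fold of -1.19, or -0.26 without cell 46, which held 33.6% of its reads. Cbx5, the heterochromatin protein HP1 alpha, was among the higher genes, found in 25 of 25 and 15 of 21 cells with a log2 fold of 1.56. The 7 cells were picked by the G2/M genes themselves, so what set the balance of mitotic genes was not tested by leaving them out. The S phase median was 0.73 without them.

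Ribosome assembly genes were higher in the cells with Kit reads. All 26 passed the filter, 22 higher and 9 at least 2-fold higher (57.4% and 13.7% over all genes), with a median log2 fold of 0.68, and 0.39 among cells numbered 7 to 42. The median cell held reads of 17 and 13 of them at equal depth, beside 6 in CD34-negative cells. Polr1b, the second largest subunit of RNA polymerase I, was found in 15 of 25 cells (60.0%) and 2 of 21 (9.52%). Its log2 fold of 2.64 lay between 2.44 and 4.14 with any 1 cell left out, the latter without cell 16. Gnl3, nucleostemin, was found in 17 of 25 and 6 of 21 cells with a log2 fold of 2.47. The fold of Gnl3 lay between 2.29 and 3.64 with any 1 cell left out, the latter without cell 16. Nhp2, a subunit of H/ACA ribonucleoproteins, had medians of 38.6 and 0 CPM and a log2 fold of 1.49. The abundant nucleolar genes differed less, with log2 folds of 0.66 for Npm1, nucleophosmin, and 0.04 for Ncl, nucleolin. Among 24 genes of amino acid, nucleotide and glycan supply, all of which passed the filter, 15 were higher, a share near the 57.4% of all genes, and 8 at least 2-fold higher (13.7% of all genes), with a median of 0.33. Atic, of purine synthesis, had a log2 fold of 2.85, or 3.59 without cell 16, Shmt2, of mitochondrial one-carbon metabolism, 1.71, or 2.34 without cell 20, and Dpagt1, which starts the N-glycan, 1.68. The lowest folds with any 1 cell left out were 2.61 for Atic, 1.44 for Shmt2 and 1.51 for Dpagt1.

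**Figure D4:**
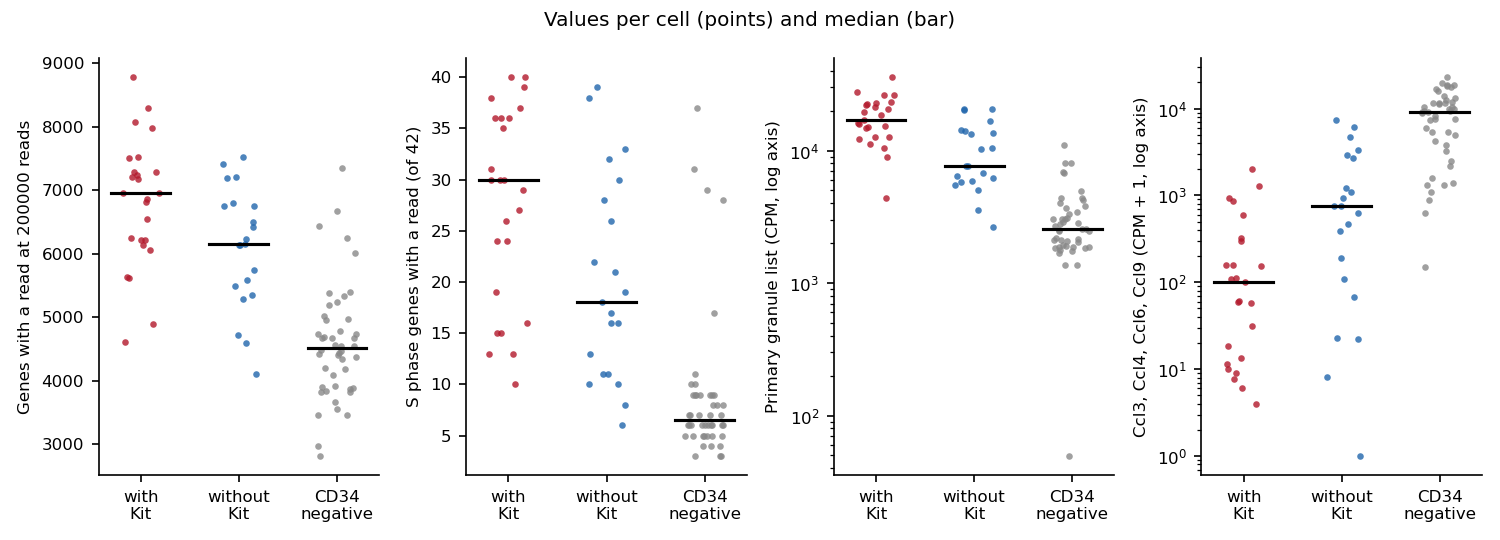
Values per cell (points) and medians (bars) for cells with Kit reads, without Kit reads and CD34-negative cells: genes and S phase genes with a read at 200000 gene reads, and summed CPM of the primary granule list and of 4 chemokines on log axes. The medians run 6950, 6147 and 4510.5 genes, and 30, 18 and 6.5 S phase genes, from left to right.

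The genes that pass on or limit the Kit signal included higher and lower ones. Of 38 adaptor and kinase genes, 34 passed the filter, 14 higher and 20 lower, none of them 2-fold lower and 3 at least 2-fold higher, beside 57.4% higher, 8.09% 2-fold lower and 13.7% 2-fold higher over all genes. Their median log2 fold was -0.07, and 0.28 on the ERCC scale. Crk, an SH2 and SH3 adaptor, had medians of 55.9 and 6.28 CPM and a log2 fold of 1.31, or 1.91 among cells numbered 7 to 42. The fold of Crk lay between 1.05 and 1.72 with any 1 cell left out. Plcg2, a phospholipase C, had medians of 118 and 38.96 CPM and a log2 fold of 1.19, or 0.93 without cell 25. The 2 STAT5 genes went opposite ways, with log2 folds of 0.98 for Stat5a and -0.88 for Stat5b, and that of Stat5a lay between 0.79 and 1.51 with any 1 cell left out, the latter without cell 31. Gab2, the docking protein for PI3 kinase, summed to 149 and 271 CPM, with a log2 fold of -0.86. The fold of Gab2 lay between -1.04 and -0.67 with any 1 cell left out, the former without cell 47. Grb2, the adaptor that recruits Sos, was found in every cell with a log2 fold of 0.14, equal to the median of all genes.

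Of 21 inhibitors of Kit signalling, 16 passed the filter, 10 higher and 6 lower, a share of higher genes near the 57.4% of all genes, with a median of 0.14. At least 2-fold, 4 were higher and 1 lower, beside 13.7% and 8.09% of all genes. Cbl, the ubiquitin ligase that removes activated Kit, summed to 50.1 and 12.8 CPM, a log2 fold of 1.89. Cell 25 held 25.9% of Cbl reads, and the log2 fold was 1.43 without this cell and 0.29 with it in the other set, where Kit status at equal depth places it. Spry2, a Ras pathway inhibitor, had a log2 fold of -1.10 that lay between -1.50 and -0.71 with any 1 cell left out, the latter without cell 43. The pair of SH2B adaptors differed in sign, with 1.40 for Sh2b2 (0.74 without cell 44 and 2.29 without cell 31) and -0.94 for Sh2b3 (-1.37 without cell 4). Sh2b3 lay between -1.37 and -0.69 with any 1 cell left out. Inpp5d and Ptpn6, the phosphatases SHIP1 and SHP-1, had log2 folds of -0.12 and 0.18.

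Of 17 genes of the Kit ligand and other growth factor receptors, 10 passed the filter, 4 higher and 6 lower beside 57.4% higher over all genes. The list median was -0.25. Kitl, the ligand, did not pass it. Tfrc, the transferrin receptor through which dividing cells take up iron, had medians of 17.3 and 0 CPM, was found in 15 of 25 and 3 of 21 cells, and had a log2 fold of 2.33, or 3.32 without cell 36. Its lowest fold with any 1 cell left out was 2.16. Il7r, a receptor chain for interleukin 7 and TSLP, held 3 reads in all 25 cells with Kit reads, against 57.3 CPM in those without and 166 CPM in CD34-negative cells. Its log2 fold of -5.62 had counting limits of -5.91 and -5.14, and was -5.03 without cell 23. Il7r was nevertheless found in only 6 of the 21 cells without Kit reads and in 31 of 46 CD34-negative cells. Csf2rb and Csf2rb2, the common beta chain and its interleukin 3 specific copy, had log2 folds of -0.38 and -0.66, and reads of these near-identical genes may be split between them.

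Transcription factors known to act on the Kit gene were present in both sets. Of 15, 14 passed the filter, 6 higher and 8 lower, beside 57.4% higher over all genes, with a median of -0.19, and 0.16 on the ERCC scale. Gata2, which acts on Kit in progenitors and mast cells, was read in all cells, from 569.8 through 1806 to 3086 CPM with Kit reads and from 966 through 2167 to 3501 CPM without. Its log2 fold of -0.33 was 0.03 on the ERCC scale. Gata1 had a log2 fold of -1.08, or -0.85 without cell 5 and -0.94, -0.88 and -0.98 without cells 24, 46 and 10. Myb, a factor of proliferating progenitors, ran from 19.9 through 291 to 869 CPM with Kit reads and from 0 through 139 to 649.7 CPM without. It was read in all 25 cells of the first set and 19 of 21 of the second, with a log2 fold of 0.91 that was 1.03 without cell 24 and 1.08 without cell 31. The lowest fold of Myb with any 1 cell left out was 0.79. Meis1, a homeobox factor of stem cells, had medians of 30.1 and 2.67 CPM and a log2 fold of 1.21, but 0.57 without the 5 cells low in Prss34. Of 28 stem and progenitor genes, 23 passed the filter, 12 higher (beside 57.4% of all genes) and 11 lower, with a median of 0.01, below that of all genes. Hoxa9 and Hlf, stem cell factors, had log2 folds of 1.87 and 1.95, or 2.72 without cell 8 and 3.29 without cell 32. Gfi1, a repressor in granulocyte precursors, had a log2 fold of -2.14, or -3.16 without cell 25 and -1.53 without cell 31. Itgb7, the integrin beta 7 chain of basophil and mast cell precursors, summed to 386 and 763 CPM, with a log2 fold of -0.98 at the 2-fold line (-1.07 without cell 14). Itgb7 lay between -1.07 and -0.85 with any 1 cell left out.

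The genes with the largest folds over all genes follow, first in the higher direction. Gins3, a subunit of the replicative helicase, held 38.02 CPM in cells with Kit reads and 0 reads in the 21 others. Set against a limit of 3 reads over the 21 cells, the ratio was 174.6. This limit covers counting error alone, as amplified reads without molecular identifiers are not independent, so the ratio is no lower bound. Gins3 was found at equal depth in 10 of the 25 cells. Cell 34 held 46.3% of its reads, and without this cell the ratio was 99.9. Dolk, dolichol kinase of glycan synthesis, was found in 9 of 25 and 1 of 21 cells with a log2 fold of 5.06 (counting interval 4.53 to 5.34). Chek1, the replication checkpoint kinase, was found in 9 of 25 and 2 of 21 cells, with a log2 fold of 4.48. Tnfrsf13b, a receptor of B cells known as TACI, was found in 7 of 25 and 1 of 21 cells, with a log2 fold of 4.54. Mccc2, of leucine breakdown, was found in 10 of 25 and 2 of 21 cells, with a log2 fold of 4.44, or 3.81 without cell 14. Cyth3, an exchange factor for ARF proteins, had 4.35. Tab1, Gm37653 and Rcc1l had log2 folds of 4.69, 4.90 and 4.61, and 4.43, 4.82 and 4.52 without cell 25. With Kit status read at equal depth, which moves only cell 25 to the other set, the folds were 1.65, 2.68 and 2.51. Other cells left out gave 5.40 without cell 37 for Tab1, 4.07 without cell 7 for Gm37653, and 4.0 without cell 7 and 5.21 without cell 11 for Rcc1l. These 9 genes and Elane had their median cell at or near 0 CPM in both sets.

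In the lower direction, L1cam, a cell adhesion molecule, summed to 0.677 and 106 CPM with 308 CPM in CD34-negative cells, a log2 fold of -6.00, or -5.37 without cell 30. C3ar1, the receptor for complement fragment C3a, was found in 5 of 25, 12 of 21 and 42 of 46 CD34-negative cells. Its log2 fold was -4.03, or -5.04 without cell 25 and -3.56 without cell 37. Slfn2, a regulator of lymphoid and myeloid quiescence, was found in 7 of 25, 14 of 21 and 41 of 46 cells. Its log2 fold was -4.02, or -4.62 without cell 26 and -3.47 without cell 37. For these 3 genes and Il7r, the cells without Kit reads lay between the others in the share of cells. The same order did not hold for Rnf121, a RING protein of the Golgi, found in 6 of 25, 8 of 21 and 4 of 46 cells with a log2 fold of -4.12. Chac1, which cleaves glutathione, was found in 3 of 25, 8 of 21 and 9 of 46 cells. Its log2 fold was -3.65, or -4.88 without cell 47 and -3.28 without cell 43. The others of this rank were Stxbp3 (-3.73, or -3.02 without cell 46 and -4.33 without cell 26), Gm10505 (-3.62), Acad10 (-3.47, or -4.15 without cell 4 and -3.02 without cell 8) and B430306N03Rik (-3.41).

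By share of cells at equal depth, the median difference over all genes was 4.76 percentage points in favour of cells with Kit reads. Cluh, an RNA-binding protein for mitochondrial transcripts, was found in 20 of 25 cells (80.0%, 59.3 to 93.2%) and 5 of 21 (23.8%, 8.22 to 47.2%), with a log2 fold of 1.91. Rubcn, a regulator of autophagy, was found in 19 and 4 cells, Polr2g, a subunit of RNA polymerase II, in 23 and 8, and Ercc6l2, a DNA repair helicase, in 17 and 3. The pseudogene Llph-ps2 was found in 20 and 5 cells, and its reads may come from its parent gene. In the other direction, Ppm1d, the phosphatase WIP1, was found in 5 of 25 and 14 of 21 cells. Gm5733 (3 and 14 cells), A230098N10Rik (3 and 12), Gm43386 (3 and 12) and 1700063K16Rik (1 and 10) are annotated as a pseudogene, a lincRNA, a locus of unsettled type and a pseudogene, in that order. A230098N10Rik at chr5:29996141-30008798 and Gm43386 at chr5:29946718-29950718 are neighbours on the minus strand, and 73.6% of the exon bases of 1700063K16Rik overlap another gene. All 5 of these lower genes were found in at least 14 of 46 CD34-negative cells.

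**Figure D5:**
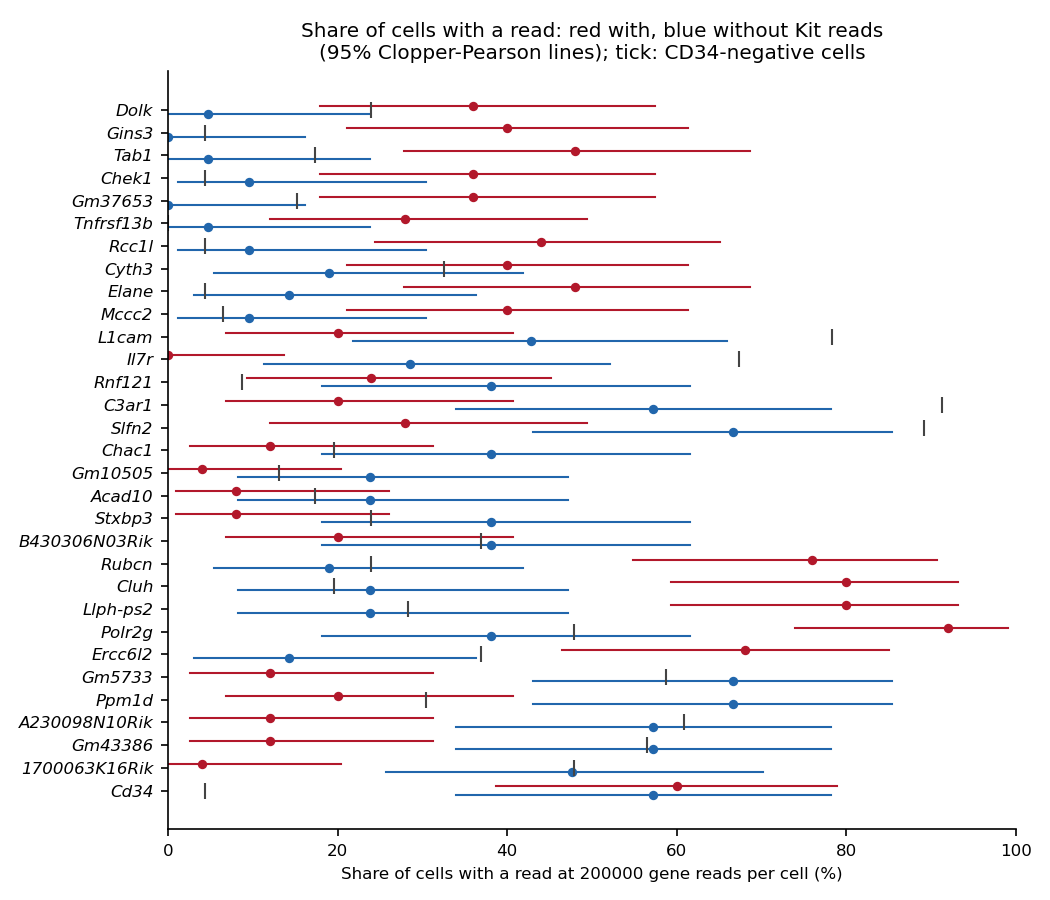
Share of cells with a read at 200000 gene reads per cell, in percent, for the genes picked by fold or by share and for Cd34; red points are the 25 cells with and blue points the 21 cells without Kit reads, lines are exact Clopper-Pearson 95% intervals and ticks are CD34-negative cells. Cluh stands at 80.0% and 23.8%, Il7r at 0 and 28.6%, and Cd34 at 60.0% and 57.1%.

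Within the 25 cells, correlations with the Kit level are given only as a description, over cells that share 1 plate and with the Kit counts that chose them. Spearman's rho of Kit CPM was 0.57 with the number of primary granule genes found at equal depth, 0.45 with ribosome assembly genes, 0.54 with all genes found and -0.36 with gene reads. With the summed CPM of the primary granule list rho was 0.27, and with that of the basophil list -0.37. It was -0.19 with S phase genes and -0.22 with basophil genes found.

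Markers of other cell types moved with the sets in part, and their share in the results was not tested. Of 11 mast cell markers none passed the filter and 6 had 0 reads (Mcpt1, Mcpt2, Mcpt9, Mrgprb1, Mrgprb2 and Mrgprx1), with sums per cell of 0 to 155 CPM with Kit reads and 0 to 285 CPM without. Of 10 neutrophil markers, Lcn2 and Cxcr2 passed and Ltf, Camp, Ngp, Retnlg and Mmp9 had 0 reads. Their sums were 0 to 1039.9 CPM with and 0 to 1893 CPM without Kit reads. Of 11 erythroid markers, 2 passed and all 4 globin genes had 0 reads, with sums of 0 to 321 and 0 to 359 CPM. Klf1, an erythroid factor, was the marker with the largest fold, found in 10 of 25 and 2 of 21 cells with a log2 fold of 3.48, or 4.62 without cell 36. Its lowest fold with any 1 cell left out was 3.03. Of 8 monocyte and dendritic cell markers, 2 passed and Ly86 had 0 reads, with sums of 0 to 310.3 and 0 to 809 CPM, mostly from Ccr2, which had a log2 fold of -3.14 (-2.18 without cell 37 and -4.30 without cell 14). Of 9 eosinophil markers 1 passed and 3 had 0 reads, with sums of 0 to 1496 and 0 to 465 CPM. Of 7 megakaryocyte markers 2 passed, and Pf4 and Ppbp had 0 reads, with sums of 223 to 2066 and 3.34 to 2672 CPM that were mostly Itga2b. Of 8 B cell markers 1 passed, with sums of 0 to 323 and 0 to 590.4 CPM. Of 7 T and NK cell markers none passed and 5 had 0 reads, with sums of 0 to 288 and 0 to 68.6 CPM.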

How the data were processed

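Single basophils were sorted into 2 gates by CD34 and sequenced as 50 bp single-end reads after 19 cycles of cDNA amplification, per the labels' protocols. The authors deposited 1 table of read counts per gene and cell, not normalized, and the submitters' processing notes name GSNAP, HTSeq 0.5.3p3 and mm10. The annotation release and strand setting are not given in the sources used here, so overlapping genes are uncertain. Without molecular identifiers, counting intervals (exact Poisson for summed reads, exact Clopper-Pearson for shares, both 95%) cover counting error alone and say nothing of differences between mice.

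CPM used reads on the 46078 mouse gene identifiers only. Symbols matched 45143 of them, and positions came from GENCODE on GRCm38. The ERCC sequences (92) and summary categories (5) stayed out of library sizes. Reads were summed over each set, detection was compared after a seeded draw of 200000 gene reads per cell, and genes needed reads in at least 10 of the 46 cells. Cells are not replicates, so no p-value is given. Sorted single cells were not screened for doublets or clustered, and no 2 cells correlated above 0.53.

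Genes named outside the lists had at least 10 CPM in a set. They were the 10 in each direction with the largest fold, by the smallest of 3 versions (summed reads, mean per-cell CPM, and without the cell holding most reads), and the 5 in each direction by share of cells. The cells, gene lists and rules were chosen with earlier results of these data known. The promoter motifs and the leaving out of cells under 5000 CPM of Prss34 were added after the values were seen. The alternatives were other scalings (ERCC, edgeR TMM factors, without mitochondrial or ribosomal RNA locus genes), pseudocounts of 0.1 and 10 CPM, no filters on cells or genes, other Kit thresholds, other draws, and leaving out cells. Folds were tested on simulated counts first. Single values of some list genes are not reported here. The tools were edgeR 4.0.16 in R 4.3.3, and pandas 2.3.3, scipy 1.17.1, matplotlib 3.10.9 and numpy 2.4.6 in Python 3.11.15.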

Additional observations from a re-analysis of the deposited data

How the results depend on the processing

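No paired analysis was possible because label numbers only name single cells, and nothing here was tested. Each set is 1 sample from mice that cannot be told apart, so differences between mice are not covered, and low genes rest on few cells.

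Scaling by ERCC reads moved the log2 fold of Cd34 to 0.55, the median of all genes to 0.47, the shares past 2-fold to 24.1% higher and 4.45% lower, and the list medians to 1.11 (S phase), 0.51 (G2/M), 1.03 (ribosome assembly) and 0.28 (Kit adaptors and kinases). A pseudocount of 10 CPM gave 0.083 for all genes, with 6.71% higher and 4.45% lower. Without each gene's richest cell, Cd34 was at -0.24 and the primary granule median at 0.58. With no filter on low genes, the median of all genes was 0.086. With 10 or more Kit reads against 0, Cd34 was at 0.41. Among cells numbered 7 to 42, Cd34 was at -0.098, all genes at 0.12, G2/M at 0.38 and ribosome assembly at 0.39. Without cells under 1000 CPM of Prss34 plus Mcpt8, Cd34 was at -0.30. Without cells of 40 or more G2/M genes, all genes were at 0.12 and G2/M at 0.96. Without cells under 5000 CPM of Prss34, an alternative added after the data were seen, Cd34 was at -0.62 and all genes at 0.10. The causes were not tested.

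With each cell left out in turn, Cd34 ran from -0.24 to 0.48 and the G2/M median from -0.12 to 0.57. The primary granule median ran from 0.62 to 0.80, the S phase median from 0.66 to 0.94, ribosome assembly from 0.55 to 0.80 and basophil genes from -0.80 to -0.53. Of the values of 153 single genes under these settings except leaving out single cells, 713 moved and 1582 stayed within counting error.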
